A study of Saccharomyces cerevisiae with 17 samples.

Results

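Yeast lacking Nmd4, a protein that binds the RNA helicase Upf1, was compared with wild type (WT) yeast by sequencing of poly(A) RNA. The comparison took every library of both genotypes, 6 of nmd4Δ and 5 of WT, out of 17 in the series, and every gene that passed a filter on low counts, 6162 of the 6692 in the table. All strains derived from BY4741, a haploid MATa laboratory strain of Saccharomyces cerevisiae, and carried the plasmid pRS415, which holds LEU2. They grew in synthetic medium without leucine to an absorbance of 0.6 to 0.7 at 600 nm. In nmd4Δ the Kluyveromyces lactis URA3 gene (KlURA3) replaced NMD4. The same marker replaced EBS1 in ebs1Δ and UPF1 in upf1Δ, with 3 libraries each, and the labels give no marker for WT. Against WT, loss of Nmd4 and presence of KlURA3 therefore cannot be told apart, whereas nmd4Δ, ebs1Δ and upf1Δ share the marker and differ in the deleted gene. The labels do not say how many clones of each strain were used.

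Nonsense-mediated mRNA decay (NMD) degrades mRNAs on which the ribosome stops too early, among them mRNAs with premature stop codons, upstream reading frames, retained introns or programmed frameshifts. Upf1 is its central helicase and acts with Upf2 (gene NMD2) and Upf3. In budding yeast Nmd4, which has a PIN domain like human SMG6, and Ebs1 bind Upf1 and are found with it in a complex that also holds decapping factors. NMD substrates accumulate strongly in yeast without Upf1. Nmd4 and Ebs1 are accessory factors, and the comparison asks what their loss, here that of Nmd4, does to the mRNA population.

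The largest rises were in genes of zinc uptake and the largest falls included genes of pyrimidine synthesis, so the DNA letters to which the regulators of these pathways are known to bind are shown first. In yeast the activator Zap1 turns on zinc transporter genes when zinc is scarce, through an element written ACCTTNAAGGT. Promoters here are the 500 bases before the start codon of 5984 genes on the RefSeq sequence of sacCer3, on both strands (the element reads the same on each). The exact element was in 9 of them (0.15%), and a form with at most 1 letter changed was in 118 (1.97%). Of the 26 genes on a list of zinc genes 12 had such a form. Among the 11 that changed in nmd4Δ 6 had it. For each, 1 best match is printed on the gene's strand in capitals, the one farthest from the start codon where matches were equal.
ZRT1: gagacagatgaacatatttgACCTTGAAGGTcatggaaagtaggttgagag
ZRG17: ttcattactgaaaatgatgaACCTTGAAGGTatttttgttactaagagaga
ZPS1: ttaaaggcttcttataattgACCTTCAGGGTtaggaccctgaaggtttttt
ZRT3: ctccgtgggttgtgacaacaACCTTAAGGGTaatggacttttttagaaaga
ZAP1: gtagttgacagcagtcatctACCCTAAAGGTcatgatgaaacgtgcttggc
ZRT2: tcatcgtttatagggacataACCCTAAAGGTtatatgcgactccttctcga
The windows lie at chrVII:20754-20804 on the plus strand (ZRT1), chrXIV:699485-699535 on the minus strand (ZRG17), chrXV:34309-34359 on the plus strand (ZPS1), chrXI:118618-118668 on the plus strand (ZRT3), chrX:333187-333237 on the minus strand (ZAP1) and chrXII:404343-404393 on the minus strand (ZRT2). The ZRT1 and ZRG17 sites match the element exactly, and the other 4 have 1 letter changed. The ZPS1 window holds a further form with 1 letter changed, accctgaaggt, which is left in small letters. From the end of the match in capitals to the start codon there were 73 bases in ZRG17, 133 in ZAP1, 144 in ZRT3, 193 in ZRT1, 300 in ZRT2 and 318 in ZPS1. In VEL1, FET4 and YOR387C the best match had 2 letters changed, and in ADH4 and YJL132W it had 3. Over all genes that rose in nmd4Δ and have a promoter in the set, 9 of 242 held the element with at most 1 letter changed.

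Ppr1 is the yeast activator of pyrimidine genes and responds to dihydroorotate and orotate, intermediates of the pathway. It is known to bind inverted CGG triplets, searched here as TTCGGNNNNNNCCGAA on both strands. This motif was in 2 of 5984 promoters (0.0334%), those of URA1 and of SPO24, a gene expressed in sporulation. The URA1 site is shown because URA1 had the largest fall among genes of at least 10 CPM (read counts scaled to library size), the deleted gene aside.
URA1: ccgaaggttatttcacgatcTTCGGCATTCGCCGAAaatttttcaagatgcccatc
This window lies at chrXI:25012-25067 on the plus strand, and its motif ends 167 bases before the start codon. A match is a description of these letters and not a measured binding site.

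The nmd4Δ libraries held 23.99 to 59.48 M counted reads, and the WT libraries 26.13 to 57.65 M. They came from 2 sequencing batches, with nmd4Δ replicates 1 to 3 and WT replicates 1 and 2 in batch 1 and the rest in batch 2. The ebs1Δ and upf1Δ libraries were all in batch 1. By their counts, nmd4Δ replicates 4, 5 and 6 resembled 1, 2 and 3, and WT replicates 3 and 4 resembled 1 and 2, more than other libraries of the genotype. The distance used was a chi-square per degree of freedom between the counts of 2 libraries. It was 9.26 to 12.4 for matched nmd4Δ pairs and 11.2 to 13.5 for matched WT pairs. Other pairs had 12.3 (nmd4Δ replicates 2 and 3) to 41.6 in nmd4Δ and 18 to 48.3 in WT. The labels number all of these libraries as separate biological replicates. Here matched libraries were treated as repeats of 1 set, which leaves n = 3 sets per genotype, and edgeR alone with every library as separate called 836 genes higher and 889 lower. A gene was called, and is said to have risen or fallen, only if its Benjamini-Hochberg adjusted p was under 0.05 both in edgeR's quasi-likelihood test and in a limma voom fit with the sets as a random block. Changes are log2 fold changes ± SE from edgeR with the sequencing batch as a term. EdgeR takes matched libraries as separate, so these SE and the edgeR p-values make no allowance for the repeats and may be too small. Levels are CPM, read counts relative to the TMM-scaled library size, given per library, or as mean ± SD over the 3 sets. CPM are not divided by gene length, so levels are compared between strains and not between genes. P-values reflect the spread among these libraries alone.

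NMD4 was nearly free of reads where the labels say it is deleted. It (YLR363C, chromosome XII, 852495 to 853151) had 31, 32, 17, 36, 61 and 33 reads in nmd4Δ libraries 1 to 6, against 805, 874, 1765, 1221 and 1198 in WT libraries 1 to 5, a change of -5.04 ± 0.074 (edgeR adjusted p = 6.73e-20). The pheromone genes of MATa cells, MFA1 and MFA2, and the receptor gene STE2 were expressed in all libraries, and the MATalpha genes MF(ALPHA)1 and MF(ALPHA)2 had 5 to 45 reads in nmd4Δ and WT libraries. Of the genes next to NMD4, YLR361C-A (0.01), STE11 (-0.03), YLR363W-A (-0.09) and GRX8 (0.17) were not called. Nor were the other genes of the pathway, with 0.11 ± 0.145 for NAM7 (the table's name for UPF1), -0.11 ± 0.045 for NMD2, -0.15 ± 0.047 for UPF3 and -0.05 ± 0.05 for EBS1.

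In nmd4Δ, 250 genes rose (4.06% of those tested) and 262 fell (4.25%), NMD4 included, and most changes were small. The median change was 0.335 among the genes that rose and -0.291 among those that fell. Past 2-fold there were 17 rises and 17 falls (0.276% of tested genes in each direction). Short genes were common among the rises: of those in RefSeq 20.7% spanned under 500 bases, against 4.96% of the genes that fell and 13.0% of all tested. In 211 of the 250 every nmd4Δ library was above every WT library, and in 236 of the 262 every one was below. Over all tested genes such separation occurred upward in 489 (7.94%) and downward in 617 (10%). In an edgeR fit of all nmd4Δ and WT libraries with a separate nmd4Δ effect for each batch, all 512 calls had the same sign in both batches. In both, 167 of the rises and 200 of the falls passed, against 574 of all tested genes. The calls were made from both batches together and most batch 2 libraries were treated as repeats, so this is not an independent replication. Fitted on its own libraries and called by edgeR alone, batch 1 gave 89 rises and 43 falls, and batch 2 gave 418 and 449. EdgeR alone on all libraries gave 836 and 889. The batch 1 fit also held the ebs1Δ and upf1Δ libraries. Here and below, fits of 1 batch, of summed sets or with replicate numbers as a block were called by edgeR alone. Called by both tests, there were 127 rises and 109 falls without WT replicate 5. Without WT replicates 2 and 4, which are 1 set, there were 69 and 29. Between batches, edgeR's interaction test called 0 of 6058 genes, with 69 (1.14%) at an unadjusted p under 0.05. Because matched libraries recur in both batches, this test cannot show whether the effect would repeat in new cultures.

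**Figure D1:**
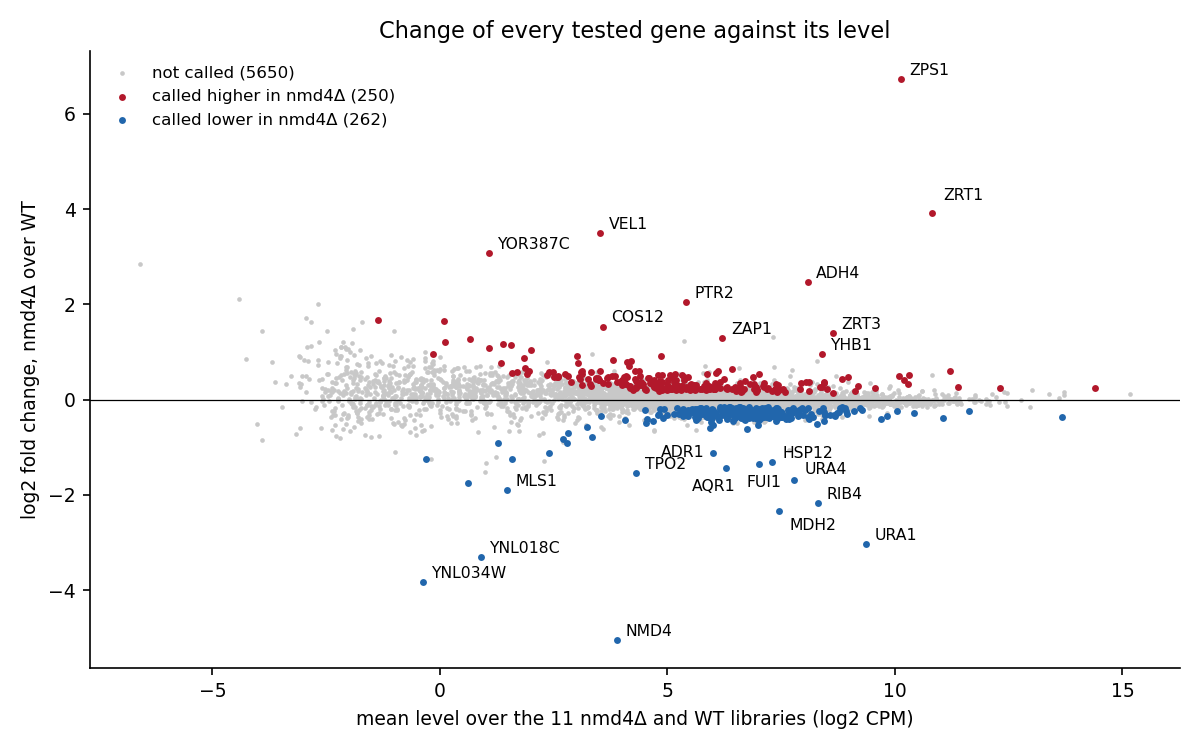
Log2 fold change (nmd4Δ over WT) of each tested gene against its mean level in log2 CPM over the 11 libraries, with called genes coloured by direction and the largest named. ZPS1 at 6.735 and ZRT1 at 3.92 stand above the other genes of their level, and URA1 at -3.025 stands below, while most called genes lie within 2-fold of no change.

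Genes of zinc uptake and storage had the largest rises. Of 26 genes on the zinc list 10 rose and 1 fell, which is 42.3% called against 8.31% of all tested genes, and the list's median change was 0.16. ZPS1, a cell wall gene that yeast turns on when zinc is scarce (YOL154W, chromosome XV, 34658 to 35407), had 1959 to 2114 CPM (median 2063) in the nmd4Δ libraries, against 19.7, 20.3, 16.99, 18.5 and 20.7 CPM in the WT libraries. Its level was 106.5-fold higher (6.735 ± 1.02, edgeR adjusted p = 0.000783, blocked limma adjusted p = 0.0101), and the groups were far apart. This SE is from the fit that also holds the ebs1Δ and upf1Δ libraries. In the edgeR fit of nmd4Δ and WT libraries alone, the change was 6.705 ± 0.095 in batch 1 and 6.77 ± 0.078 in batch 2. The call was lost with DESeq2, with batch 1 alone, without nmd4Δ replicates 2 and 5 and without WT replicates 2 and 4, at changes of 6.70 to 6.76. ZRT1, the high-affinity zinc transporter of the plasma membrane (YGL255W, chromosome VII, 20978 to 22108), had 2898 to 3438 CPM (median 3096) in nmd4Δ, against 182, 249.7, 181, 232 and 191 CPM in WT (3.92 ± 0.72, edgeR adjusted p = 0.00240, blocked limma adjusted p = 0.0177). Every nmd4Δ library was above every WT library, but the call was lost when WT replicate 5, the only WT library with no match, was left out (3.90). It was also lost whichever of the 5 matched sets was left out, with matched libraries summed and with batch 1 alone, at changes of 3.80 to 4.11. In the edgeR fit of nmd4Δ and WT libraries alone, the ZRT1 change was 3.892 ± 0.167 in batch 1 and 3.961 ± 0.14 in batch 2.

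ZAP1, which encodes the zinc-responsive activator itself (YJL056C, chromosome X, 330431 to 333073), had 91.4 to 108 CPM (median 102) in nmd4Δ, against 37.0, 46.0, 39.4, 44.5 and 39.6 CPM in WT (1.30 ± 0.19). ZRT3, which exports stored zinc from the vacuole (YKL175W, chromosome XI, 118793 to 120304), had 512.5 to 615.5 CPM (median 554) in nmd4Δ and 201, 233, 193.5, 219 and 207 CPM in WT (1.39 ± 0.20). ADH4, an alcohol dehydrogenase gene known to be induced by zinc shortage (YGL256W, chromosome VII, 15159 to 16307), had 350.1 to 586.5 CPM (median 375) in nmd4Δ and 81.6, 75.2, 82.65, 75.0 and 75.6 CPM in WT (2.46 ± 0.16). In all 3 genes the nmd4Δ libraries were above every WT library, and edgeR adjusted p-values were 0.000573 for ZAP1, 0.00036 for ZRT3 and 1.16e-07 for ADH4. VEL1, known for its high induction in zinc-depleted cells (YGL258W, chromosome VII, 11110 to 11730), had 14.05 to 29.1 CPM (median 16.9) in nmd4Δ and was scarce in WT, with 1.94, 1.55, 1.72, 1.86 and 1.47 CPM (3.50 ± 0.28). The other rises on the list were YOR387C (3.07 ± 0.49), FET4, a low-affinity metal transporter (0.60 ± 0.125), YJL132W (0.525 ± 0.095) and ZRG17, of zinc transport into the endoplasmic reticulum (0.22 ± 0.066). ZRT2, the low-affinity zinc transporter, was the only member that fell (-0.36 ± 0.066). In yeast it is known to be repressed by Zap1 under severe zinc shortage. RTC4, which has the exact element in its promoter, had 53.4 to 59.6 CPM (median 54.3) in nmd4Δ, against 22.95, 25.5, 21.4, 25.4 and 23.2 CPM in WT, but its blocked limma adjusted p of 0.0536 missed the threshold.

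The level of these genes also differed among cultures of the other deletion strains. ZPS1 had 609, 40.4 and 33.2 CPM in ebs1Δ libraries 1 to 3 and 952, 36.2 and 834 CPM in upf1Δ libraries 1 to 3. ZRT1 had 2305, 404 and 176 CPM in ebs1Δ and 2050, 162 and 1518 CPM in upf1Δ. ZAP1 had 86.3, 43.7 and 39.35 CPM in ebs1Δ and 72.6, 41.7 and 73.95 CPM in upf1Δ. In each of these genes ebs1Δ library 1 and upf1Δ libraries 1 and 3 were high and the other 3 were much lower, whereas all 6 nmd4Δ libraries were high. Summed over the 26 genes, the level was 8761 to 9265 CPM in nmd4Δ, 3216 to 6034 CPM in ebs1Δ, 3428 to 6791 CPM in upf1Δ and 3104 to 3386 CPM in WT. Against ebs1Δ, 10 of the 26 were higher in nmd4Δ and 1 was lower (background 7.24% higher and 10.1% lower), with 3.20 ± 1.09 for ZPS1, 1.97 ± 0.20 for ADH4, 1.00 ± 0.25 for ZRT3 and 0.835 ± 0.25 for ZAP1. ZRT1 was not called against ebs1Δ (1.74 ± 0.83) or upf1Δ (1.37 ± 0.82). The zinc content of the cultures was not measured, and its part in the result was not tested. The count of rises on the zinc list was 9 to 11 when single libraries were left out, 5 without nmd4Δ replicates 2 and 5, 4 without WT replicates 2 and 4 and 2 with batch 1 alone. The ZRG17 call was lost in 8 of the 11 fits that left out 1 library.

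**Figure D2:**
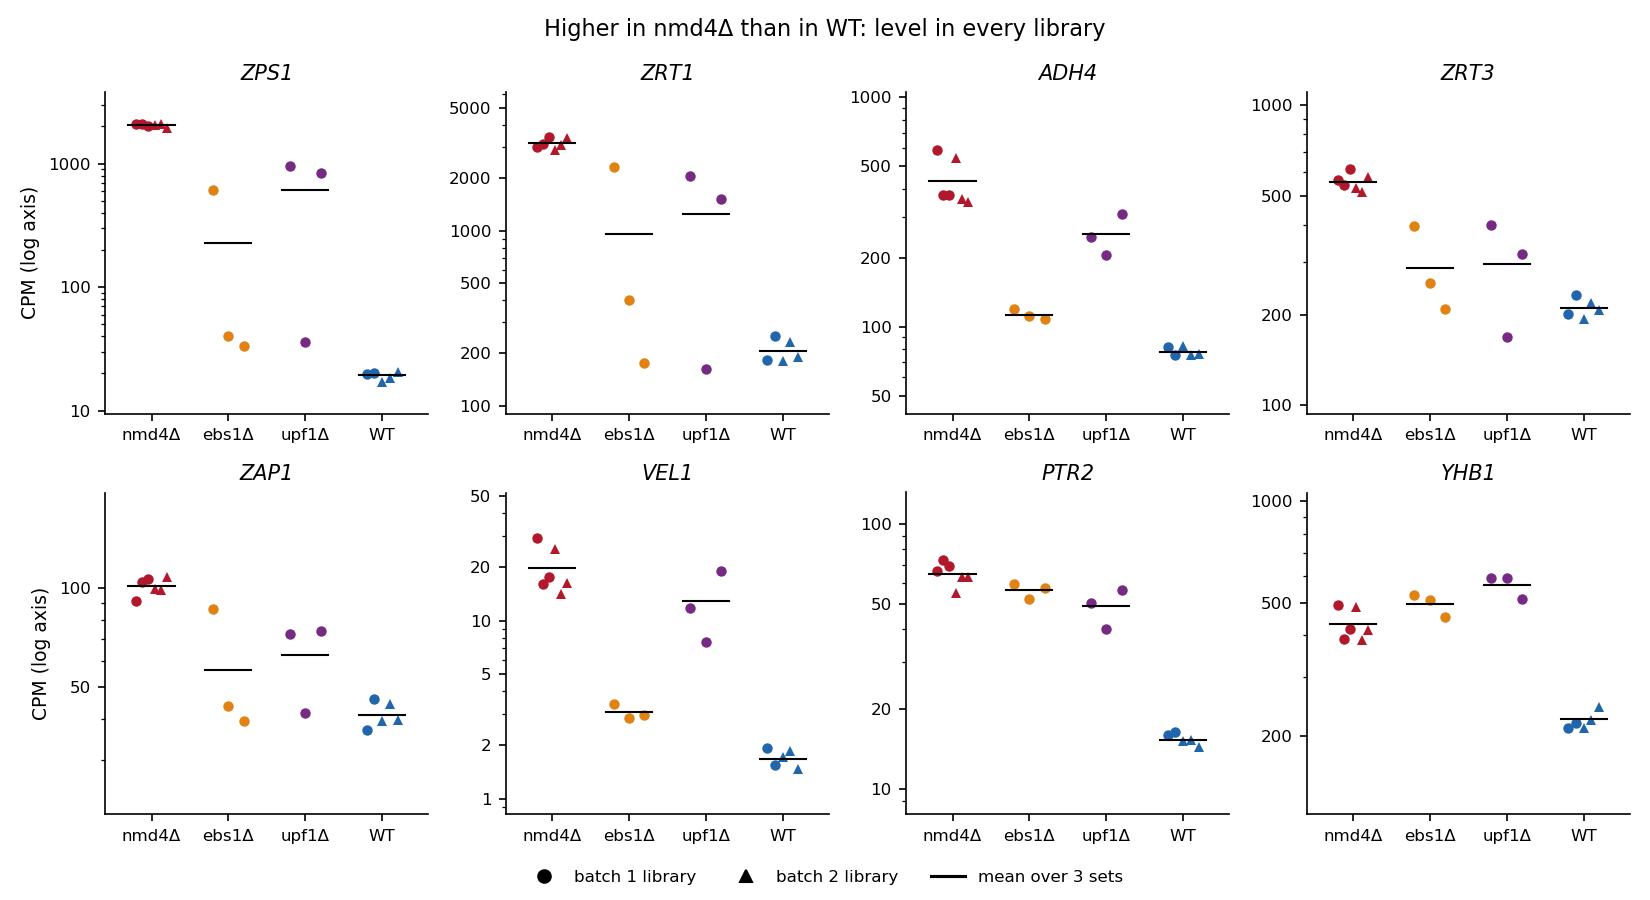
CPM on a log axis of ZPS1, ZRT1, ADH4, ZRT3, ZAP1, VEL1, PTR2 and YHB1 in each library, with nmd4Δ at the left, then ebs1Δ, upf1Δ and WT, circles for batch 1, triangles for batch 2 and a line at the mean of the 3 sets. The 6 nmd4Δ libraries lie above all WT libraries in every panel, and ZPS1 and ZRT1 spread widely among the 3 ebs1Δ and the 3 upf1Δ libraries.

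Several of these genes are neighbours near the left end of chromosome VII. Of 13 genes in the table whose start lies within 30000 bases of that end, 12 were tested, 7 rose and 0 fell, with a median change of 1.24. In order from the end, COS12, of the subtelomeric COS family (1.53 ± 0.27), YGL262W (1.66 ± 0.24), YPS5, an aspartyl protease gene (1.17 ± 0.13), YGL258W-A (1.27 ± 0.13), VEL1, ADH4 and ZRT1 rose. PAU11, of the seripauperin family (1.215 ± 0.33), was not called, and its reads may be shared with near copies. The call of YGL262W was lost in 5 of the 11 fits that left out 1 library. Between these genes and towards the centromere MNT2 (0.075), FZF1 (-0.11), HXK2 (-0.03) and RTG2 (-0.04) were not called. The median over the same 12 genes was 1.14 in ebs1Δ and 2.68 in upf1Δ relative to the same WT libraries. Counting genes within 30000 bases of any of the 32 chromosome ends, 44 of 307 rose (14.3%, against 4.06% of all tested genes) and 6 fell, and the rises were spread over 20 ends.

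Genes of multicopy families were on the positive side. All 19 tested seripauperin and TIR genes had a positive change, with a median of 0.59, of which 3 were called: TIR1 (0.79 ± 0.185), TIR4 (0.46 ± 0.073) and TIR2 (0.45 ± 0.10), cell wall mannoprotein genes of cold or anaerobic growth. Without WT replicate 5 none of the 3 was called (0.70, 0.46 and 0.38). Many seripauperin genes are near-identical, so reads may be split among copies. The median of this list relative to WT was 0.616 in ebs1Δ and 2.614 in upf1Δ. Between nmd4Δ and ebs1Δ 0 of the 19 were called. Relative to upf1Δ 17 were lower in nmd4Δ and 1 was higher (34.3% and 28.9% of all tested genes). Of 12 COS genes, all with a positive change and a median of 0.22, COS12 and COS8 (0.23 ± 0.059) rose, the COS8 call being lost in 10 of the 11 fits without 1 library. The COS median relative to WT was 0.199 in ebs1Δ and 0.741 in upf1Δ. Called shares were 15.8% of seripauperin and TIR genes and 16.7% of COS genes, against 8.31% of all tested genes.

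Apart from zinc genes and COS12, the largest rises in genes of at least 10 CPM were in PTR2, which takes up dipeptides and tripeptides, and YHB1, the flavohemoglobin that detoxifies nitric oxide. PTR2 (YKR093W, chromosome XI, 615730 to 617535) had 54.7 to 73.0 CPM (median 64.8) in nmd4Δ, against 16.0, 16.3, 15.2, 15.3 and 14.4 CPM in WT (2.05 ± 0.073, edgeR adjusted p = 2.78e-13). CUP9, the repressor of PTR2, fell (-0.34 ± 0.06), and so did STP1, an activator in amino acid sensing (-0.23 ± 0.039). These were the only 3 of 18 genes of amino acid and peptide uptake to be called (16.7%, against 8.31% of all tested genes). PTR2 had 59.5, 52.05 and 57.4 CPM in ebs1Δ and 50.35, 40.2 and 56.3 CPM in upf1Δ, all above WT, and it was slightly higher in nmd4Δ than in both (0.29 ± 0.086 and 0.49 ± 0.086). YHB1 had 387 to 493 CPM (median 415) in nmd4Δ, against 211, 219.5, 212, 223 and 244.5 CPM in WT (0.96 ± 0.071). It was also above WT in the other deletion strains, with 526, 507.5 and 453 CPM in ebs1Δ and 590.4, 590.0 and 514 CPM in upf1Δ. YHB1 was the only one of 6 genes linked to the nitrosative stress regulator Fzf1 to be called, and FZF1 itself was not (-0.11).

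KSH1, an essential gene of the secretory pathway (0.64 ± 0.04), YPS6, a GPI-anchored aspartyl protease gene (0.61 ± 0.079), and BIL1, which encodes a partner of the formin regulator Bud6 (0.61 ± 0.046), also rose. They complete the 12 largest rises in genes with a standard name, at least 10 CPM and no overlap between nmd4Δ and WT libraries. All 3 were lower in nmd4Δ than in upf1Δ, with changes relative to WT of 0.85, 2.12 and 1.92 in upf1Δ. Among 14 exporter genes PDR5 (0.32 ± 0.049), FLR1 (0.31 ± 0.048) and YOR1 (0.18 ± 0.038), which pump drugs out of the cell, rose. The YOR1 call was lost in 6 of the 11 fits that left out 1 library. AQR1 and TPO2, exporters of the major facilitator superfamily like FLR1, fell. Thus 5 of the 14 exporter genes were called (35.7%, against 8.31% of all tested genes). TPO2, a polyamine exporter with the near copy TPO3, changed by -1.55 ± 0.18. Relative to WT it was also low in ebs1Δ (-1.787) and upf1Δ (-2.51). It was not called between nmd4Δ and ebs1Δ and was higher in nmd4Δ than in upf1Δ. AQR1, which exports amino acids and short acids, had 40.9 to 48.4 CPM (median 43.6) in nmd4Δ, against 148, 116, 138.5, 112 and 77.7 CPM in WT (-1.445 ± 0.28). Its blocked limma adjusted p of 0.0418 was near the threshold, and the call was lost on leaving out any of the 11 libraries.

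Genes of pyrimidine synthesis and uptake held the largest fall among genes of at least 10 CPM. Of 17 genes on the list 5 fell and 0 rose (29.4% called, against 8.31% of all tested genes), with a median of -0.18. URA1, dihydroorotate dehydrogenase (YKL216W, chromosome XI, 25215 to 26159), had 149 to 161 CPM (median 154) in nmd4Δ, against 1253, 1261, 1252, 1230 and 1322 CPM in WT (-3.025 ± 0.073, edgeR adjusted p = 2.94e-16, blocked limma adjusted p = 1.3e-15). URA4, dihydroorotase (YLR420W, chromosome XII, 963785 to 964879), had 107.5 to 110.4 CPM (median 109) in nmd4Δ, against 349, 349, 352, 354 and 357 CPM in WT (-1.69 ± 0.041, edgeR adjusted p = 2.36e-16). Both were low in all nmd4Δ libraries, with a spread within each strain that was small next to the difference. FUI1, the uridine permease gene, fell by 1.35 on the log2 scale, with 72.8 to 77.4 CPM (median 75.4) in nmd4Δ and 189, 212.5, 186, 201 and 169 CPM in WT. FUR4, the uracil permease (-0.37 ± 0.076), and URA2, which carries the entry steps of the pathway (-0.30 ± 0.04), fell less, and the FUR4 call was lost in 4 of the 11 fits that left out 1 library. With batch 1 alone 3 of the 17 fell. PPR1, the gene of the activator and itself a known NMD substrate, was not called (-0.18 ± 0.064).

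The other strains with the marker, set against the same WT libraries, were also low in these genes. URA1 had 172, 212 and 202 CPM in ebs1Δ and 190.5, 252 and 181 CPM in upf1Δ, and URA4 had 107, 113 and 111 CPM in ebs1Δ and 95.5, 111 and 92.7 CPM in upf1Δ, all far below WT. URA1 was somewhat lower still in nmd4Δ, by -0.34 ± 0.088 against ebs1Δ and -0.43 ± 0.088 against upf1Δ, both called, while URA4 was not called against ebs1Δ (-0.02 ± 0.052). Native URA3, deleted in BY4741, had 0 reads in every library, and reads of KlURA3 were not analysed here. SPO24, the other gene with the motif searched above, fell by 0.32 on the log2 scale, a call lost in 6 of the 11 fits that left out 1 library.

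RIB4, lumazine synthase of riboflavin synthesis (YOL143C, chromosome XV, 54595 to 55104), had 119 to 125 CPM (median 124) in nmd4Δ, against 599, 528, 588, 521 and 539 CPM in WT (-2.18 ± 0.046). Its values were 131, 115 and 117 CPM in ebs1Δ and 133, 140.2 and 137 CPM in upf1Δ, so it was low in all 3 strains with the marker. Of the other 8 tested genes of the riboflavin list only RIB5, riboflavin synthase, was called (-0.21 ± 0.054), and that call was lost in most fits that left out a library. The share of the list called was 22.2%, against 8.31% of all tested genes. RIB5 was lower in nmd4Δ than in ebs1Δ (-0.25 ± 0.068) and upf1Δ (-0.17 ± 0.068).

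**Figure D3:**
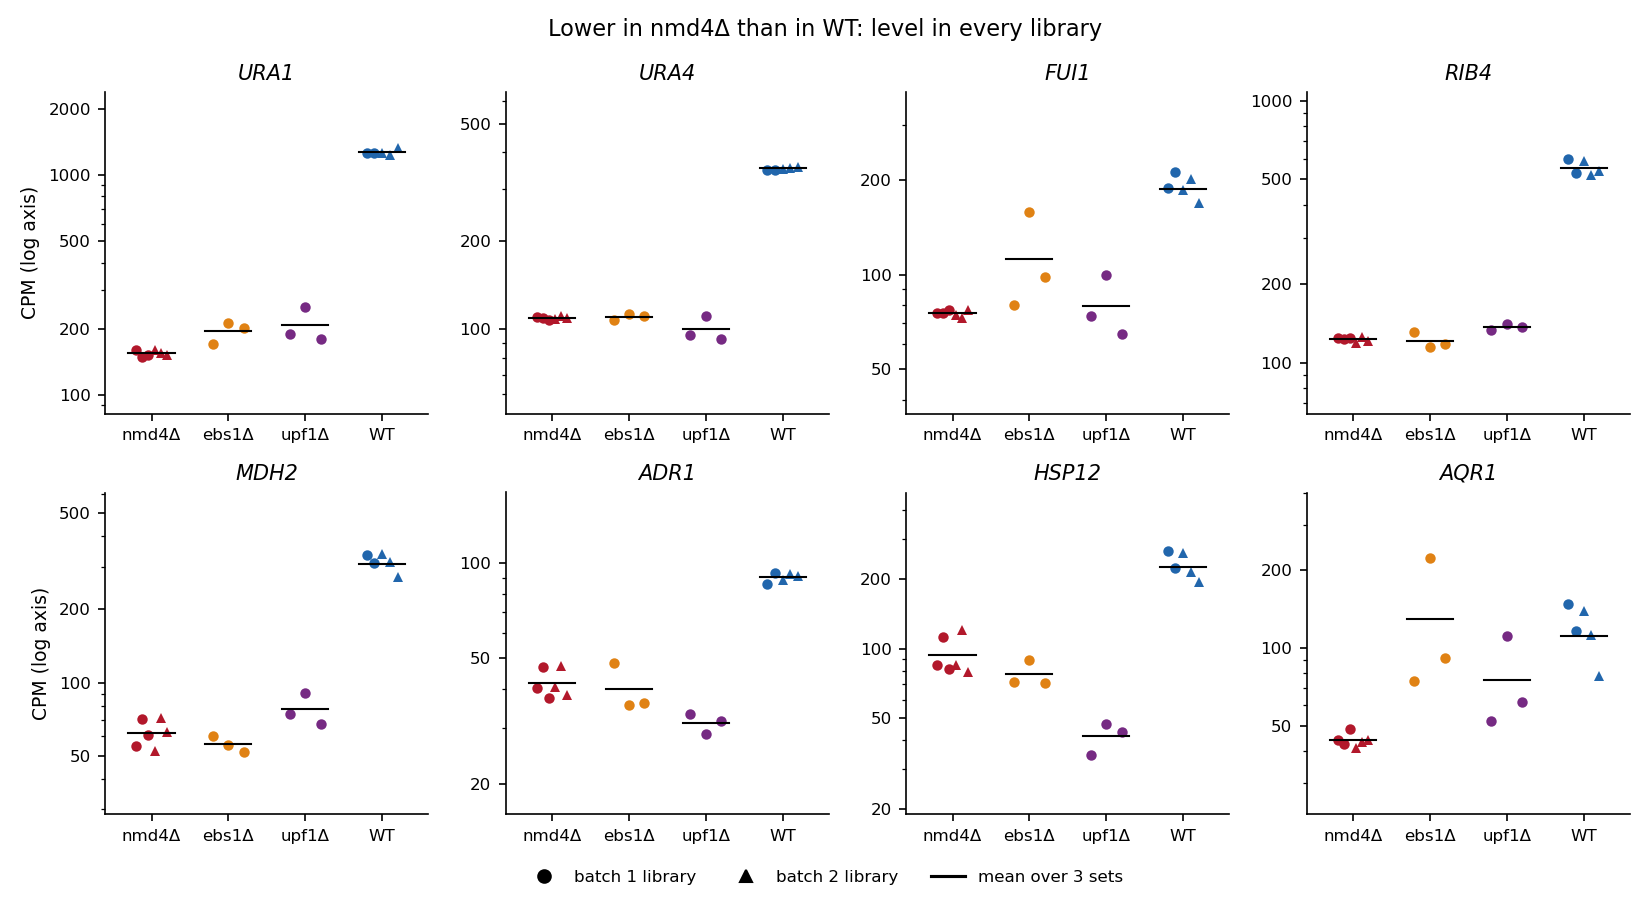
CPM on a log axis of URA1, URA4, FUI1, RIB4, MDH2, ADR1, HSP12 and AQR1 in each library, with nmd4Δ at the left, then ebs1Δ, upf1Δ and WT, circles for batch 1, triangles for batch 2 and a line at the mean of the 3 sets. URA1, URA4, RIB4 and MDH2 are low in all libraries of the 3 deletion strains and high in all 5 WT libraries, whereas AQR1 spreads from 74.8 to 222 CPM in ebs1Δ.

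Genes for growth on carbon sources other than sugar fell where they were called. Of 18 such genes 7 fell and 0 rose (38.9% called, against 8.31% of all tested genes), with a median of -0.415. MDH2, the cytosolic malate dehydrogenase of gluconeogenesis and the glyoxylate cycle (YOL126C, chromosome XV, 81787 to 82920), had 52.3 to 71.3 CPM (median 61.7) in nmd4Δ, against 335, 312, 337, 313 and 272 CPM in WT (-2.34 ± 0.092). It was also low in ebs1Δ, with 60.25, 55.1 and 51.6 CPM, and in upf1Δ, with 74.4, 90.8 and 67.7 CPM. ADR1, the activator of glucose-repressed genes, had 37.5 to 47.4 CPM (median 40.5) in nmd4Δ, against 86.1, 93.3, 88.95, 92.9 and 91.4 CPM in WT (-1.11 ± 0.078). MLS1, malate synthase (-1.89 ± 0.33), FBP1, fructose-1,6-bisphosphatase (-1.755 ± 0.255), ADH2, the alcohol dehydrogenase that consumes ethanol (-0.92 ± 0.13), ICL1, isocitrate lyase (-0.49 ± 0.086), and MAE1, malic enzyme (-0.405 ± 0.052), also fell. The number of falls was 3 without nmd4Δ replicates 2 and 5, 3 without WT replicates 2 and 4 and 4 without nmd4Δ replicates 1 and 4, and the MLS1 call was lost in 7 of the 11 fits that left out 1 library. None of the 7 was called between nmd4Δ and ebs1Δ. Summed over the 18 genes the groups overlapped, with 1742 to 1963 CPM in nmd4Δ and 1922 to 2181 CPM in WT.

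Changes of glycolytic and fermentative genes were small in size. Of 20 genes 4 rose and 1 fell (25% called, against 8.31% of all tested genes), with a median of 0.14. ENO1 (0.51 ± 0.094) and ENO2 (0.25 ± 0.05), the enolase genes, TDH2, a glyceraldehyde-3-phosphate dehydrogenase gene with the near copy TDH3 (0.245 ± 0.051), and PDC5, a pyruvate decarboxylase gene (0.395 ± 0.063), rose. ADH1, the main fermentative alcohol dehydrogenase, fell (-0.37 ± 0.071), with 10830 to 12230 CPM (median 11540) in nmd4Δ, against 17240, 13850, 16560, 13490 and 13160 CPM in WT. ADH1 is known to be repressed through Zap1 in zinc-limited yeast. Without WT replicate 5 there was 1 rise instead of 4, with ENO1 (0.48), ENO2 and TDH2 not called, and there were 0 without nmd4Δ replicates 2 and 5 or WT replicates 2 and 4. Relative to ebs1Δ, 11 of the 20 were higher in nmd4Δ and 0 were lower (7.24% and 10.1% of all tested genes). Of 18 hexose uptake genes HXT4 was the only one called (5.56%), and it fell (-0.59 ± 0.074).

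Many mRNAs of ribosome assembly factors fell slightly. All 38 tested assembly genes had a negative change, with a median of -0.345, and 21 of them fell (55.3%, against 4.25% of all genes). They included NOP2, a methyltransferase of the large subunit rRNA (-0.39 ± 0.072), RLP7, of rRNA processing (-0.37 ± 0.062), and DBP9, an RNA helicase (-0.37 ± 0.067). NOP2 had 175 to 189 CPM (median 185) in nmd4Δ, against 217, 251.5, 229.5, 259.8 and 252 CPM in WT, and no libraries overlapped. Summed over the list the level was 7773 to 8202 CPM in nmd4Δ, 8149 to 10650 CPM in ebs1Δ, 6855 to 8738 CPM in upf1Δ and 9203 to 10110 CPM in WT. Relative to ebs1Δ 15 of the 38 were lower in nmd4Δ and 0 higher (10.1% and 7.24% of all tested genes). Of 138 ribosomal protein genes 1 fell, RPS9A (-0.19 ± 0.044), and 0 rose, with a median of -0.044. The assembly calls depended on the libraries used: their number was 8 without WT replicate 5, 11 to 13 without WT replicate 2 or 4 or nmd4Δ replicate 1, 3, 4 or 5, 1 to 6 without a set of nmd4Δ, 0 without the set of WT replicates 2 and 4, and 0 with batch 1 alone. The RPS9A call was lost in 8 of the 11 fits without 1 library.

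MRD1, which is required for processing of the rRNA precursor, fell (-0.53 ± 0.10). It was among the 12 largest falls in genes with a standard name, at least 10 CPM and no overlap between nmd4Δ and WT libraries. So were EGO4 (-0.78 ± 0.14), HSP12, the membrane-binding heat shock gene (-1.31 ± 0.13), and HXT4. HSP12 had 78.8 to 120.4 CPM (median 84.7) in nmd4Δ, against 265, 225, 261, 216 and 195 CPM in WT. It was lower still in upf1Δ (34.3, 47.2 and 43.3 CPM) and at 71.4, 89.2 and 70.9 CPM in ebs1Δ. The call of MRD1 was lost without WT replicate 5 (-0.56), and that of EGO4 in 5 of the 11 fits without 1 library.

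**Figure D4:**
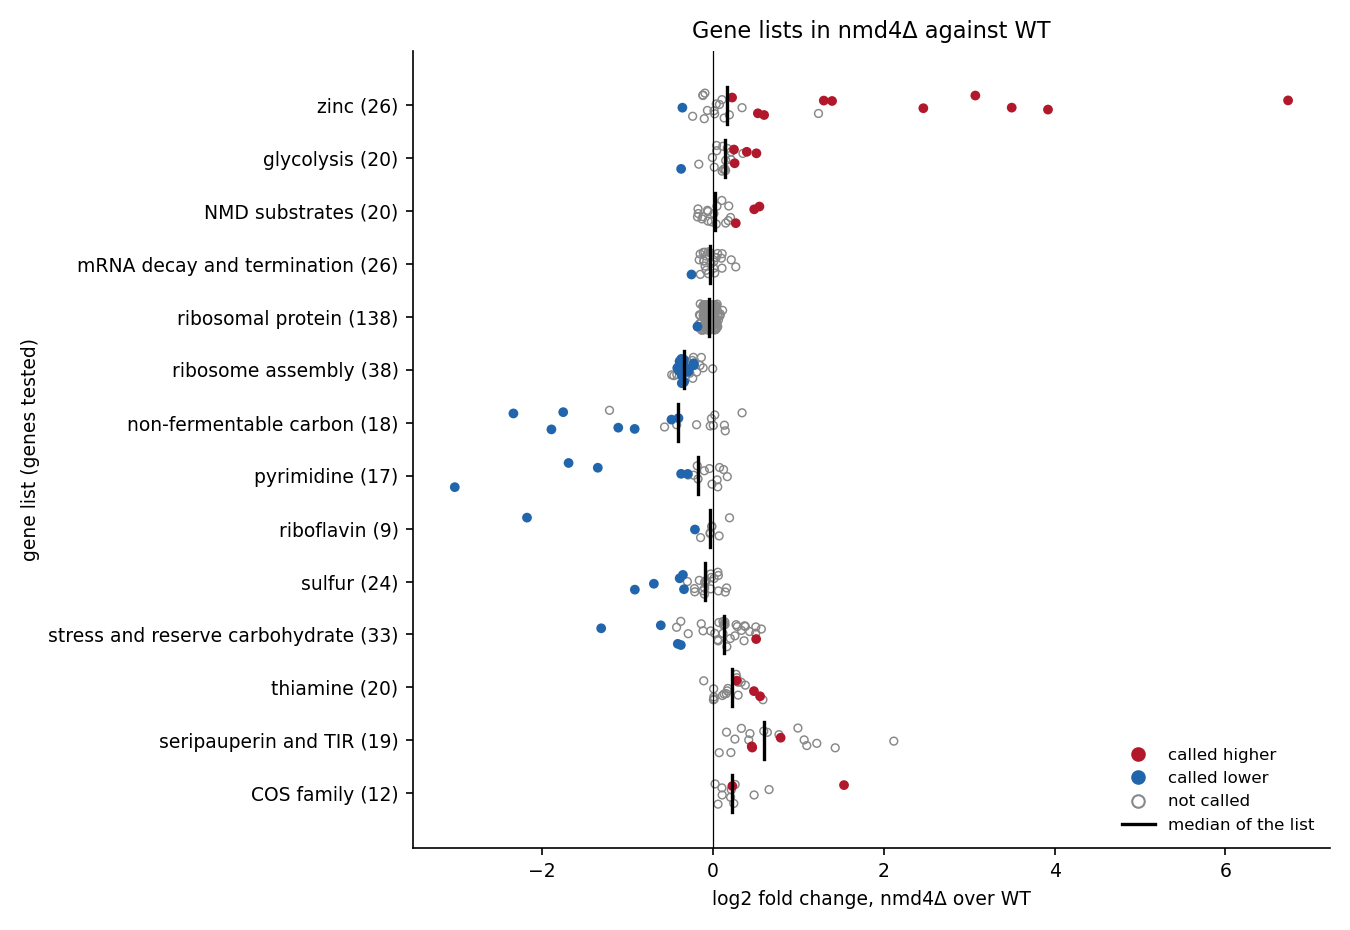
Log2 fold change (nmd4Δ over WT) of every tested member of selected gene lists, with called members filled and the list's median as a bar. Zinc genes reach 6.735, pyrimidine genes reach down to -3.025, all 38 ribosome assembly genes lie below 0, and the 138 ribosomal protein genes lie close to 0 with a median of -0.044.

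The known substrates of NMD changed far less in nmd4Δ than in upf1Δ. Of 20 mRNAs documented as substrates in yeast, 3 rose and 0 fell in nmd4Δ (15.0% called, against 8.31% of all genes), with a median of 0.02. The median of the same genes relative to the same WT libraries was 0.33 in ebs1Δ and 1.06 in upf1Δ. EST3, a telomerase subunit read through a frameshift, had 40.1 to 44.0 CPM (median 42.45) in nmd4Δ, against 30.2, 29.5, 26.6, 28.4 and 29.5 CPM in WT (0.54 ± 0.04, edgeR adjusted p = 2.25e-08, blocked limma adjusted p = 6.9e-05), and the groups did not overlap. Its level was 48.55 ± 0.392 CPM in ebs1Δ and 79.5 ± 3.41 CPM in upf1Δ (SD, n = 3 each). CPA1, the carbamoyl phosphate synthetase subunit of arginine synthesis, whose mRNA has a regulatory upstream reading frame, had 311 to 412 CPM (median 375) in nmd4Δ, against 325, 295.5, 333, 297 and 257 CPM in WT (0.27 ± 0.081). AQY2, an aquaporin gene interrupted in this strain background, had 6.865 ± 0.854 CPM in nmd4Δ and 4.66 ± 0.649 CPM in WT (0.48 ± 0.096). AQY2 overlaps YLL053C on the same strand, and the calls of AQY2 and CPA1 were lost in 8 and 9 of the 11 fits that left out 1 library.

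The substrates with the largest changes in upf1Δ were near WT in nmd4Δ. STN1, a telomere-capping gene, had 25.3 ± 0.392 CPM in nmd4Δ, 40.6 ± 2.49 CPM in ebs1Δ, 137 ± 6.70 CPM in upf1Δ and 23.3 ± 0.679 CPM in WT, and was not called in nmd4Δ (0.10 ± 0.04). DAL7, a malate synthase gene of allantoin breakdown, had 30.3 ± 0.681 CPM in nmd4Δ, 40.1 ± 4.38 CPM in ebs1Δ, 293.5 ± 10.1 CPM in upf1Δ and 26.4 ± 0.9565 CPM in WT, and was called by edgeR alone (0.205 ± 0.048, edgeR adjusted p = 0.00457, blocked limma adjusted p = 0.0981). EST2, the telomerase reverse transcriptase gene, was not called (-0.02 ± 0.061), nor was TEN1, a partner of Stn1 (0.18 ± 0.078). RPL22B, whose unspliced transcript is a known substrate, was at -0.18 ± 0.047 and was not called by the blocked fit. Tested directly between strains, 11 of the 20 were lower in nmd4Δ than in ebs1Δ and 0 higher, and 18 were lower than in upf1Δ and 1, UBP7, higher. The background of these comparisons was 10.1% lower than in ebs1Δ and 34.3% lower than in upf1Δ. The summed level of the 20 genes was 3555 to 3675 CPM in nmd4Δ, 3866 to 4078 CPM in ebs1Δ, 5653 to 6000 CPM in upf1Δ and 3558 to 3776 CPM in WT.

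**Figure D5:**
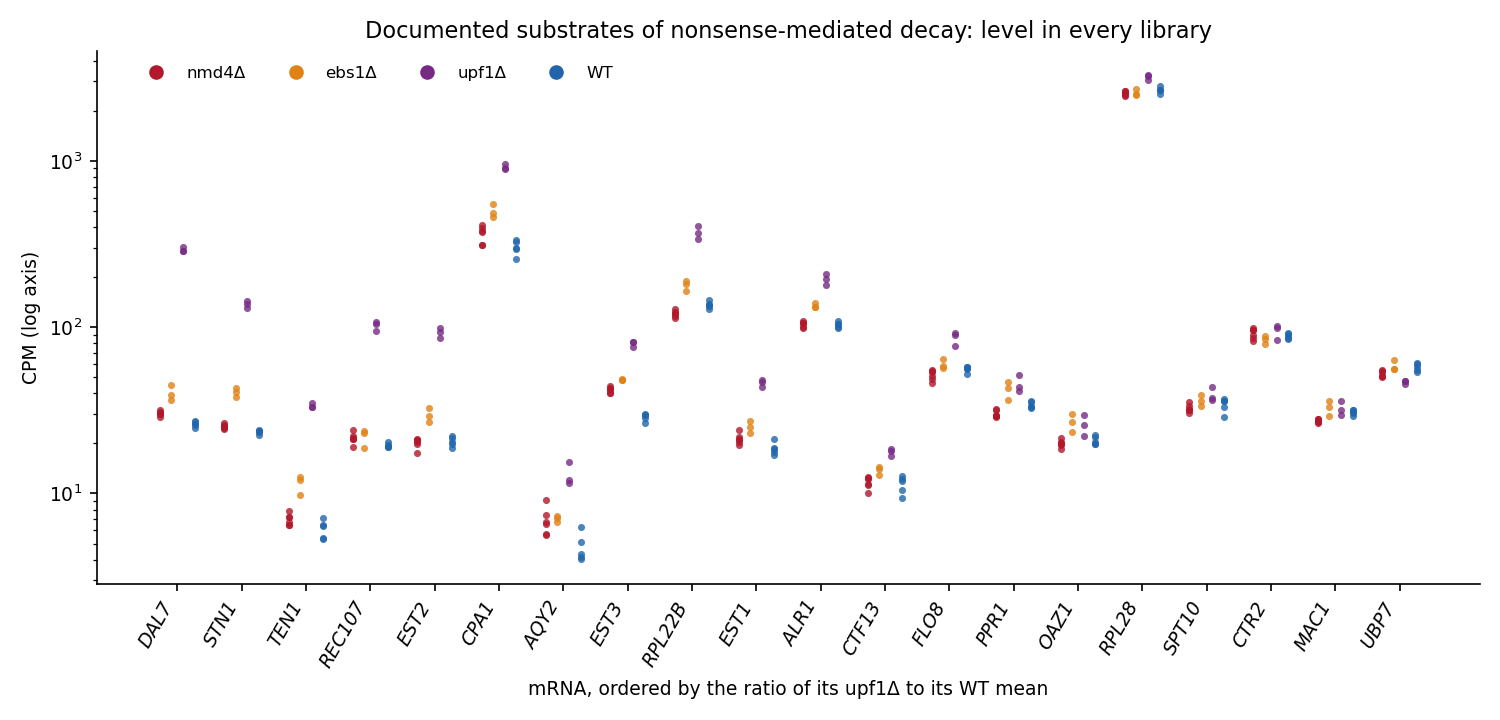
CPM on a log axis of 20 documented NMD substrates, 1 point per library, with nmd4Δ at the left of each gene, then ebs1Δ, upf1Δ and WT, and genes ordered by the ratio of upf1Δ to WT. For DAL7, STN1, TEN1 and EST2 the upf1Δ libraries stand far above the rest and nmd4Δ lies near WT, while for EST3 the nmd4Δ libraries lie above those of WT.

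Lists of mRNAs with upstream reading frames and of decay, meiotic, thiamine and nitrogen genes held few calls. The share called was 14.3%, 3.85%, 10.5%, 15% and 6.67% in this order, against 8.31% of all tested genes. Of 14 mRNAs with upstream reading frames CPA1 rose and TIF4631, a gene of the translation initiation factor eIF4G, fell (-0.24 ± 0.061). Of 26 genes of mRNA decay and translation termination 1 fell, SUP35, the release factor gene (-0.26 ± 0.045), and 0 rose. Of 19 early meiotic genes IME2, a meiotic protein kinase gene (0.41 ± 0.063), and IME1, the activator of entry into meiosis (0.31 ± 0.08), rose and 0 fell, while the list's median was 0.15 in nmd4Δ and 1.88 in upf1Δ. Of 20 thiamine genes PET18 (0.48 ± 0.06), THI6 (0.28 ± 0.036) and THI13 (0.55 ± 0.12), a member of a set of near-identical copies, rose and 0 fell. Of 30 nitrogen genes GLN1, glutamine synthetase (-0.23 ± 0.041), and GZF3, a GATA-type repressor (-0.20 ± 0.046), fell. The calls of TIF4631, IME1, THI13 and GZF3 were lost in 9 or 10 of the 11 fits without 1 library.

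Of 24 sulfur genes 5 fell and 0 rose (20.8% called, against 8.31% of all tested genes), with a median of -0.099. The number of falls was 2 without WT replicates 2 and 4, 3 without nmd4Δ replicates 1 and 4 or 2 and 5, and 1 with batch 1 alone. Those that fell were SUL1, a sulfate permease of low level (-0.92 ± 0.17), STR3, cystathionine beta-lyase (-0.69 ± 0.086), MMP1, the S-methylmethionine permease (-0.39 ± 0.054), MET2, homoserine acetyltransferase (-0.35 ± 0.063), and MET6, methionine synthase (-0.34 ± 0.05), with the MET2 call lost in 9 of the 11 fits that left out 1 library. Of 22 phosphate genes GIT1, a glycerophosphoinositol permease (0.43 ± 0.071), and PHM7 (0.48 ± 0.12) rose, and PHO89, a sodium-phosphate cotransporter (-1.13 ± 0.24), and PHO81, the inhibitor of the Pho80-Pho85 kinase (-0.30 ± 0.062), fell. Of 8 copper genes CTR1, the copper transporter (0.35 ± 0.088), and SOD1, copper-zinc superoxide dismutase (0.42 ± 0.087), rose. Of 27 iron genes only FRE4, a ferric reductase gene (-0.83 ± 0.11), was called. The stress list had 1 rise, SSA1, which has the near copy SSA2 (0.505 ± 0.115), and 4 falls, HSP12, YRO2 (-0.61 ± 0.14), DDR48 (-0.41 ± 0.096) and MRH1 (-0.38 ± 0.079), out of 33, although its median was positive at 0.12. The share called was 18.2% of phosphate, 25% of copper, 3.7% of iron and 15.2% of stress genes, against 8.31% of all tested genes. Without WT replicate 5 the calls of GIT1 (0.45), PHO81 (-0.28), DDR48 (-0.39), MRH1 (-0.36), YRO2 and SSA1 were lost, which leaves HSP12 as the only call on the stress list. The SSA1 call was also lost without nmd4Δ replicate 5, and that of GIT1 without nmd4Δ replicate 6 or WT replicate 4. The PHM7 call was lost in 10 of the 11 fits that left out 1 library, and that of CTR1 in all 11.

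The mating genes of MATa cells were all on the negative side. All 7 tested had a negative change, with a median of -0.28, of which BAR1, the protease that degrades alpha-factor (-0.52 ± 0.074), and STE6, the exporter of a-factor (-0.33 ± 0.059), fell. The median of these 7 relative to WT was also negative in ebs1Δ (-0.245) and upf1Δ (-1.057). Between nmd4Δ and ebs1Δ 0 of the 7 were called. Relative to upf1Δ 6 were higher in nmd4Δ and 0 lower (28.9% and 34.3% of all tested genes). Of 13 pheromone response genes FAR1 (-0.39 ± 0.064) and GPA1 (-0.24 ± 0.046) fell and 0 rose. In the respiratory chain list CYC1, cytochrome c, was the only one of 36 called (0.47 ± 0.082). Of 26 ergosterol genes ERG7 rose (0.16 ± 0.037) and ERG11 fell (-0.405 ± 0.074), and of 17 phospholipid genes INO1 (0.33 ± 0.088) and OPI3 (0.24 ± 0.043) rose and OPI1, the repressor of INO1, fell (-0.205 ± 0.039). Amino acid synthesis had 1 rise, BAT2 (0.20 ± 0.042), and 3 falls among 44 genes, the histidine genes HIS7 (-0.22 ± 0.042), HIS1 (-0.18 ± 0.042) and HIS4 (-0.17 ± 0.043). The cell wall list had 1 fall, CWP2 (-0.25 ± 0.066), the proteasome list 1 rise, PRE3 (0.17 ± 0.043), and the histone list 1 rise, HTB2 (0.19 ± 0.047), and 1 fall, HHT1 (-0.145 ± 0.038). Without WT replicate 5 the calls of GPA1 (-0.25), OPI1 (-0.20), BAT2 (0.20), HIS7 (-0.215), HIS1 and HIS4 were lost, so that no amino acid synthesis gene was called. Those of HIS1, HIS4, INO1, ERG7, CWP2, PRE3, HTB2 and HHT1 were lost in 5 to 10 of the 11 fits without 1 library. The share called was 28.6% of MATa, 15.4% of pheromone response, 2.78% of respiratory chain, 7.69% of ergosterol and 17.6% of phospholipid genes. It was 9.09% for amino acid synthesis, 4.76% for the cell wall, 3.12% for the proteasome and 20% for histones, against 8.31% of all tested genes. No member of the purine list, the endoplasmic reticulum folding list or the MATalpha list was called by both tests. EdgeR alone called 3 higher and 3 lower, 3 higher, and 2 higher in these lists.

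Most of the called genes, 398 of 512, were on none of the 37 lists, and the examples that follow were picked after their values were seen. Rises included AHP1, a thiol peroxidase gene (0.59 ± 0.16), HRT1, a ubiquitin ligase subunit gene (0.55 ± 0.041), ATG41, an autophagy gene (0.53 ± 0.088), and YEL073C near the left end of chromosome V (0.91 ± 0.058). AHP1 had 2542 to 3195 CPM (median 2651) in nmd4Δ, against 1271, 2156, 1370, 2327 and 2234 CPM in WT, where replicates 1 and 3, which are 1 set, were low. The AHP1 call was lost whichever library was left out. Falls included UTP14 (-0.40 ± 0.067), SPB1 (-0.40 ± 0.079), DBP3 (-0.41 ± 0.08) and NSA2 (-0.395 ± 0.082), each known in rRNA processing or ribosome assembly, and DOT6, a repressor of such genes (-0.45 ± 0.12). Without WT replicate 5 SPB1 and NSA2 were not called, all 4 calls of assembly factors were lost without 2 or more of the 5 matched sets, and the DOT6 call was lost in 10 of the 11 fits that left out 1 library. The falls of over 2-fold at low level included YNL034W (-3.825 ± 0.20) and YNL018C (-3.31 ± 0.16), near copies of each other at under 10 CPM, so their reads may be shared. Relative to WT, YNL034W was also low in ebs1Δ (-3.151) and upf1Δ (-2.196), and so was YNL018C (-2.554 and -3.025). Neither was called between nmd4Δ and ebs1Δ, and YNL034W was lower in nmd4Δ than in upf1Δ.

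Because the labels give the marker for the deletion strains and none for WT, genes that differed in nmd4Δ from WT, ebs1Δ and upf1Δ alike were counted. Above all 3 were 21 genes (0.341% of those tested), led among genes of at least 10 CPM by VEL1, ADH4, PTR2, ZRT3 and ZAP1. Against upf1Δ, VEL1 was near the threshold (0.695 ± 0.293, edgeR adjusted p = 0.0492). Its upf1Δ libraries, at 11.8, 7.55 and 19.1 CPM, overlapped those of nmd4Δ, at 14.05 to 29.1 CPM. The 21 genes also included ENO1, ENO2, CYC1, HOG1, the kinase of the osmotic stress pathway (0.23 ± 0.046), and CMD1, calmodulin (0.19 ± 0.039). The CMD1 call against WT was lost without nmd4Δ replicate 5 or WT replicate 5. Below all 3 were 20 genes besides NMD4 (0.325%), led by URA1, RBA50, an RNA polymerase II assembly gene, GIS2, FAF1 and MMP1. RBA50 had 49.4 to 54.7 CPM (median 53.2) in nmd4Δ, 61.0, 67.25 and 64.4 CPM in ebs1Δ, 80.35, 96.7 and 88.9 CPM in upf1Δ and 72.35, 76.2, 73.9, 76.2 and 67.3 CPM in WT. GIS2, an RNA-binding protein gene, had 291 to 308 CPM (median 299.6) in nmd4Δ, 334, 383 and 415 CPM in ebs1Δ, 347, 396 and 383 CPM in upf1Δ and 396, 438, 378, 395 and 432 CPM in WT. FAF1, of small subunit assembly, changed by -0.43 ± 0.088 relative to WT and -0.46 ± 0.11 relative to ebs1Δ, but its call against WT was lost without WT replicate 5 (-0.41). In these genes the nmd4Δ libraries lay below the WT libraries without overlap.

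Over the 17 genes 2-fold or more above WT, 8 were also above ebs1Δ and 0 below it, and 5 were above upf1Δ and 8 below it. Over the 16 genes other than NMD4 that were 2-fold or more below WT, 2 were also below ebs1Δ and 14 were not called against it, and 6 were below upf1Δ and 4 above it. In all, 446 genes were higher in nmd4Δ than in ebs1Δ (7.24%) and 622 lower (10.1%), and 1780 were higher than in upf1Δ (28.9%) and 2113 lower (34.3%). The comparison of upf1Δ with ebs1Δ shares no library with that of nmd4Δ and WT, and it was added after the values were seen. Of the 250 genes that rose in nmd4Δ, 192 (76.8%) were higher in upf1Δ than in ebs1Δ, against 31.8% of all tested genes, and 3 were lower. Of the 262 that fell, 164 (62.6%) were lower in upf1Δ than in ebs1Δ, against 25.4% of all, and 23 were higher.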

How the data were processed

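The deposited values are unnormalized gene counts in 1 column per library. Per the submitters' processing notes, the authors used STAR 2.7.11a on sacCer3 and featureCounts from Subread 2.0.5. Per the labels' protocols, RNA was extracted with hot phenol, treated with DNase, poly(A)-enriched and made into libraries with a directional kit. For annotation, strandedness and multimapped reads the settings were not given in the sources used here, so reads of overlapping or antisense genes cannot be told apart.

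Counts were analysed in R 4.3.3. Genes kept by filterByExpr (6162 of 6692, 112 of which had 0 reads everywhere) were scaled by TMM. All 17 libraries entered edgeR 4.0.16 (robust quasi-likelihood, terms for genotype and batch, 5 coefficients, 12 residual degrees of freedom) and limma 3.58.1 voom with matched sets as a random block (correlation 0.7185). A call needs a two-sided Benjamini-Hochberg adjusted p under 0.05 in both. CPM carry no batch correction. The scripts were tested on simulated counts. Named genes are the 12 largest rises and 12 largest falls with a standard name, at least 10 CPM and no overlap, up to 3 called members per list, members of small counts, NMD4 with its neighbours and pathway, the chromosome VII left end, and the 5 largest differences from WT, ebs1Δ and upf1Δ alike. Other called genes that are named were chosen after their values were seen. The members, the 37 lists (863 entries, with 3 further names not matched to the table) and the tests were chosen with earlier results of these data known. Alternatives were DESeq2 1.42.0, other scalings, filters and models, each batch, and leaving out libraries or sets.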

Additional observations from a re-analysis of the deposited data

How the results depend on the processing

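No call of a named gene changed direction: over 121 genes and up to 29 alternatives (3509 values), 0 reversed and 742 lost the call, 575 of them in fits that left out a library or a set. The 27 genes that lost none include URA1, URA4, FUI1, RIB4, MDH2, ADR1, HSP12, TPO2, PTR2, YHB1, ADH4, VEL1 and EST3. Counts of calls moved more, and the cause was not tested. EdgeR alone, which takes matched libraries as separate, gave 836 rises and 889 falls against WT, 36 rises of 2-fold or more, and 986 genes lower than in ebs1Δ. With both tests, no batch term gave 450 rises and 410 falls, and only the nmd4Δ and WT libraries 524 and 574. With edgeR alone, batch 2 gave 418 and 449, batch 1 gave 89 and 43, and summed sets gave 114 falls. Against ebs1Δ, batch 1 with edgeR alone gave 204 higher and 412 lower.

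Replicate numbers did not pair the samples: same-numbered libraries had correlations of -0.202 to -0.026 over 4064 genes. None of nmd4Δ replicates 1 to 5 was nearest to the WT library of its number. WT has no replicate 6, and replicate 3 was in batch 1 for nmd4Δ and in batch 2 for WT, so part of this was set by the design. Numbers as a replicate block, with edgeR alone, gave 902 rises, 891 falls and 31 rises of 2-fold or more against WT. Against ebs1Δ they gave 702 higher and 974 lower.

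Leaving out single libraries gave 127 (without WT replicate 5) to 268 rises and 109 (without WT replicate 5) to 273 falls, with 129 falls without WT replicate 2, 146 without WT replicate 4 and 156 without nmd4Δ replicate 5. There were 15 to 19 rises and 14 to 21 falls of 2-fold or more. Against ebs1Δ the range was 151 (without ebs1Δ replicate 2 or 3) to 673 (without ebs1Δ replicate 1) higher, with 293 without nmd4Δ replicate 1, and 195 (without ebs1Δ replicate 2) to 904 (without ebs1Δ replicate 1) lower. Against upf1Δ it was 1683 to 1937 higher and 1864 to 2103 lower. Leaving out a whole set gave 69 (without WT replicates 2 and 4) to 296 rises and 29 (without WT replicates 2 and 4) to 254 falls, 6 to 16 rises and 11 to 15 falls of 2-fold or more, 79 to 223 higher and 182 to 284 lower against ebs1Δ, and 1550 to 1614 higher and 1964 to 1976 lower against upf1Δ. NMD4 stayed between -5.204 and -4.906. The median of all genes was -0.0009 and at most 0.0141 under any alternative. With 3 sets per genotype, calls near the threshold are decided by single libraries. This holds for small changes and for some large ones, such as ZRT1 (3.92), AQR1 (-1.445) and MLS1 (-1.89).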
